A study of Mus musculus with 8 samples.

Results

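The potassium channel genes of mouse islets were compared between βUCP2Tg and WT mice. Genes were taken whose symbol in the authors' table starts with Kcn, leaving out names with an os or ot suffix, together with *Abcc8* and *Abcc9*, which encode the sulfonylurea receptor subunits of the ATP-sensitive potassium (KATP) channel. This gave 96 genes with 178 probes among 26894 genes with 56605 probes. Each gene was represented by the probe with the highest mean over the 8 normalized columns of that table, a choice that did not use the difference between the groups. Islets came from 4 βUCP2Tg and 4 WT samples of male mice. βUCP2Tg mice carry a mouse *Ucp2* cDNA under the rat *Ins2* promoter, which is active in β-cells, and had been backcrossed to C57BL6/J. WT mice were littermates without the transgene, and the age of the mice was 8 to 12 weeks for islet work. All islets were incubated for 8 h in medium with 200 mg/dL glucose. The labels do not say whether a sample pooled islets of several mice, so that SD, n and p refer to samples.

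Potassium channels let potassium leave the cell and hold the membrane potential negative. In β-cells the KATP channel, built from the pore Kir6.2 and the receptor SUR1, closes when ATP made from glucose rises, and the closure depolarises the membrane, opens calcium channels and releases insulin. Voltage-gated (Kv), calcium-activated and background (K2P) potassium channels then shape and end the electrical activity. Auxiliary subunits, which form no pore of their own, set the trafficking and gating of these channels.

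RNA of each sample was read on its own one-colour Agilent array, in which the brightness of a probe follows the amount of its transcript. Values are log2 intensities after subtraction of each array's 75th percentile, so that 0 is the level below which 75% of that array's spots lay. *Ucp2* itself read 6.99 to 7.71 on the βUCP2Tg arrays and 0.92 to 1.46 on the WT arrays, a difference of 6.24 (SE 0.18, limma adjusted p = 9.32e-06). The 10 β-cell markers examined were all measured, with mean levels of 5.07 to 5.41 on βUCP2Tg and 5.04 to 5.56 on WT arrays. Of these markers 0 were higher and 2 lower at an unadjusted p under 0.05, *G6pc2* at -0.33 with overlapping groups and *Mafa* at -0.34 without overlap (limma adjusted p = 0.187 and 0.103), and their part in the potassium channel values was not tested. All 8 arrays shared a slide on which each genotype filled its own row, so that slide position and genotype cannot be told apart. The arrays of βUCP2Tg sample 4 and WT sample 1 stood apart. Each held the highest or the lowest value of its group for 68.1% of the potassium channel genes, against 29.2 to 63.9% for the other 6 arrays, and over all genes tested the share was 69.1% and 66.9%. Each was also the array of its group nearest to the mean of the other genotype for 36 and 37 of 72 channel genes. In islets, a lower signal can come from fewer cells of a type or from less RNA per cell, and the arrays cannot tell these apart.

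Probes on this array are 60 bases long, and the last 30 bases of those on which the results turn are printed here, on the strand given in the table. The genes of the β-cell KATP channel are shown first because each was read by a pair of separate probes.
*Kcnj11*, first probe: gtgagggaaaaggaagtccccaaggccctt
*Kcnj11*, second probe: tttagcatctctccagattccttgtcctga
*Abcc8*, first probe: ctgtaaatcacttgtaAATAAAgaaattaa
*Abcc8*, second probe: atgcccagtacagatcattgtgggcgtgat
The capitals mark AATAAA, the common polyadenylation hexamer, which was searched on the given strand only and occurs in the last 30 bases of 8.12% of all probes with a sequence and of 10.1% of the channel probes. *Kcnj5* and *Kcns3* are shown because they had the lowest limma adjusted p values of the channel genes, 0.0570 and 0.0555.
*Kcnj5*: tatcgtggtgacctaagtgtgaggggactg
*Kcns3*: ctacggcttacgcatcattctatatttgcc
The probes of *Kcnk16*, *Kcnh2* and *Kcnc2* are shown because, for each of these genes, the probe with the higher mean gave overlapping groups and the second did not.
*Kcnk16*, first probe: tccctaataggtagcacatagtggtggttt
*Kcnk16*, second probe: agatcacagaaaatccccatctctgcatga
*Kcnh2*, first probe: gaggagactccagggtgctggttagcttca
*Kcnh2*, second probe: acatggccactgtcctacagctgctacaga
*Kcnc2*, first probe: agacagaattgaacatggcttgcaacagta
*Kcnc2*, second probe: acgtgttcatttagttctggaaggctgtta
Of 133 pairs of probes that read the same channel gene, 1 shared a stretch of 20 bases or more, a pair of *Kcnq1* probes with 51 bases in common. The other pairs therefore sampled separate stretches of sequence.

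No potassium channel gene passed the test between βUCP2Tg and WT islets. Probes that stood well above background on 4 or more of 8 arrays were tested, which held for 72 of the 96 genes, 61 of them with signal on all 8 arrays. A gene was called at a limma adjusted p under 0.05 over all 35363 probes tested with a fold change over 1.5. Of the 72 genes, 0 were called, against 0.482% of all 17857 genes tested (0.274% higher and 0.207% lower), and the smallest adjusted p was 0.0555. Student's t-test, which the study's methods name for comparing a pair of groups, also called 0 on the same values after adjustment. The authors' own array comparison is labelled a moderated t-test. Before adjustment Student's t-test gave 7 higher and 1 lower past the p and fold limits that the study's text names. This is 9.72% and 1.39% of the 72 channel genes, against 3.86% of all genes higher and 3.43% lower. At an unadjusted p under 0.05 there were 18 channel genes, 10 higher and 8 lower, which is 25% against 24.5% of all genes (12.9% higher and 11.6% lower). The 4 βUCP2Tg values lay wholly above or below the 4 WT values for 7 channel genes, 6 higher and 1 lower, which is 9.72% against 13.1% of all genes (6.36% higher and 6.74% lower). Counted in both directions, the shares at an unadjusted limma p under 0.05 and without overlap were close to or below those of all genes. The higher share alone was above that of all genes without overlap (8.33% against 6.36%) and by Student's t-test before adjustment.

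The differences were spread more widely than those of all genes. The fold change exceeded 1.5 for 15 channel genes, 8 higher and 7 lower, a share of 20.8% against 12.8% of all genes. The median absolute log2 fold change was 0.32 for the channel genes and 0.20 for all genes. The spread between arrays of one group was wider as well on 7 of 8 arrays, the exception being βUCP2Tg array 3 (0.22 against 0.24). The deviation of an array from its group mean had an SD over genes of 0.22 to 0.58 for the channel genes and of 0.21 to 0.49 for all genes. The median distance from the estimate to the end of its 95% interval was 0.52 against 0.33. For 17 of the 72 genes the interval lay inside 1.5-fold in both directions.

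The subunits of the β-cell KATP channel differed by 1.06-fold (*Kcnj11*) and 1.02-fold (*Abcc8*) between the genotypes, and neither passed the test. *Kcnj11*, the gene of the pore Kir6.2, read 0.51, 0.53, 0.53 and 0.51 on the βUCP2Tg arrays and 0.43, 0.37, 0.49 and 0.48 on the WT arrays. All 4 βUCP2Tg values lay above all 4 WT values, but by a small step. The difference was 0.08 (SE 0.08, limma adjusted p = 0.540), with a 95% interval of the fold from 0.936 to 1.19. The second *Kcnj11* probe differed by 0.06 with overlapping groups.

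*Abcc8*, the gene of SUR1, read 7.44, 7.43, 7.32 and 7.36 on the βUCP2Tg arrays and 7.41, 7.37, 7.38 and 7.29 on the WT arrays. The groups overlapped throughout. The difference was 0.02 (SE 0.08, limma adjusted p = 0.877) with an interval of the fold from 0.896 to 1.15, and it was -0.03 for the second probe. Its sign was not stable, since it turned to -0.0031 with the mean of the probes and to -0.0011 without WT sample 4. The SD between arrays was 0.06 in βUCP2Tg and 0.05 in WT.

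The subunits of the KATP channels best known from vessels and muscle were measured too. *Kcnj8*, which encodes the pore Kir6.1, read 0.01, -0.23, 0.11 and 0.62 in βUCP2Tg and 0.04, -0.75, -0.22 and 0.30 in WT. *Abcc9*, which encodes SUR2, read -3.54, -4.16, -3.72 and -2.88 in βUCP2Tg and -3.33, -3.48, -3.49 and -3.26 in WT. For both genes the highest of the 8 values was on βUCP2Tg array 4 and the groups overlapped. The difference was 0.28 for *Kcnj8* (SE 0.25, limma adjusted p = 0.510) and -0.18 for *Abcc9* (SE 0.24, limma adjusted p = 0.663), and the latter turned to 0.011 without βUCP2Tg sample 2. The *Kcnj8* difference ran from 0.09 without WT sample 2 to 0.44 without WT sample 4. Pericytes and smooth muscle are known to express these genes. The 8 markers of those cells had mean levels of -1.26 to -1.01 in βUCP2Tg and -1.26 to -1.20 in WT, 2 of the 8 being higher at an unadjusted p under 0.05, and their part in these values was not tested.

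In RefSeq's gene order (assembly GRCm38.p6) *Kcnj11* and *Abcc8* are direct neighbours among protein-coding genes, as are *Kcnj8* and *Abcc9*. There were 12 such pairs of neighbouring potassium channel genes, 7 of them with both genes tested, and in 5 of these 7 both differences had the same sign. The largest of these paired differences were in *Kcna1* and *Kcna6*, at -0.62 and -0.66, with limma adjusted p = 0.350 and 0.481. The *Kcna1* probe was well above background on 2 of 4 βUCP2Tg and 3 of 4 WT arrays, so that its size is poorly fixed. *Kcnk5* and *Kcnk16* were another such pair, at 0.59 and 0.32.

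**Figure D1:**
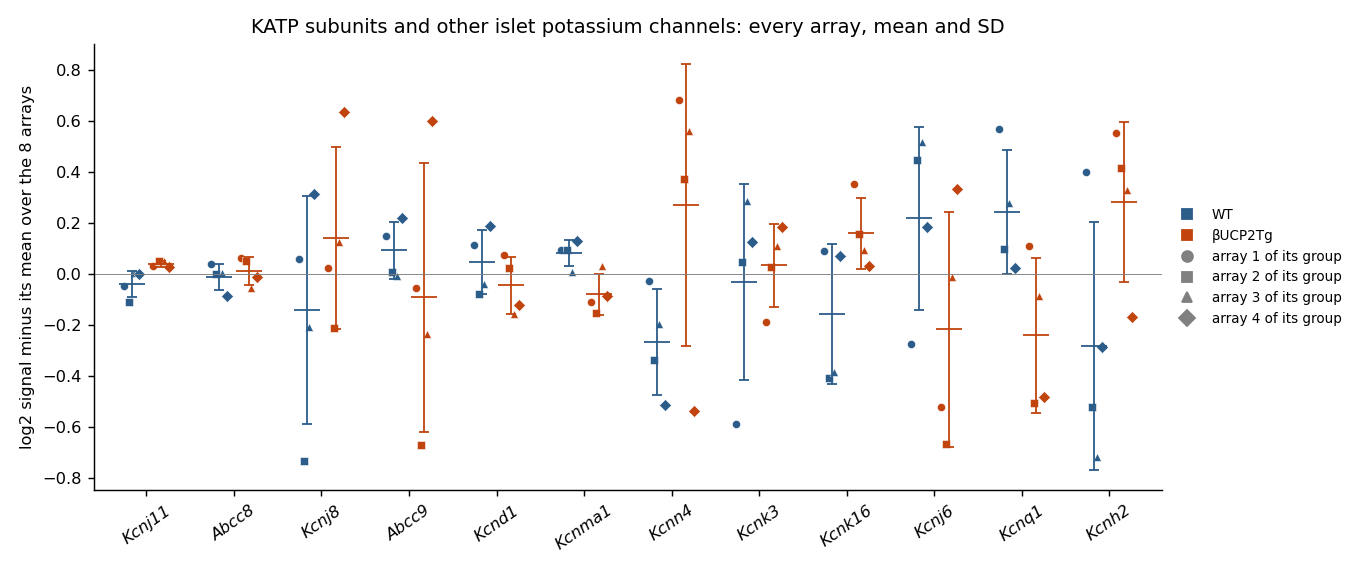
Each point is one array of KATP subunits and other channel genes known from islets, as log2 signal minus the gene's mean over the 8 arrays (y axis), with WT in blue and βUCP2Tg in orange; horizontal marks and bars give the mean and SD of 4 arrays. *Kcnj11* and *Abcc8* varied least over the arrays, and the groups overlapped for every gene shown except *Kcnj11*.

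Among the voltage-gated pore genes known from islets, *Kcnd1*, the gene of the transient A-type channel Kv4.1, read -0.16, -0.21, -0.39 and -0.36 in βUCP2Tg and -0.12, -0.31, -0.27 and -0.05 in WT. The groups overlapped, with a difference of -0.09 (SE 0.10, limma adjusted p = 0.605). The 3 tested *Kcnd1* probes disagreed in sign, from -0.10 to 0.17, and their mean gave -0.0059. With each array left out the difference ran from -0.13 (without WT sample 2) to -0.04 (without WT sample 4).

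Over the whole Kv1 to Kv4 group, 14 of 17 pore genes were tested. Of these 9 lay above 0 and 5 below, with a median log2 fold change of 0.05 and a range from -0.66 (*Kcna6*) to 0.46 (*Kcnc1*). For *Kcnc2*, the gene of Kv3.2, the 2 probes printed above gave 0.06 and 0.60. On the second probe all βUCP2Tg arrays were above all WT arrays, with a limma adjusted p of 0.0766.

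The cytosolic partners of Kv channels are the Kvβ subunits and the calcium-binding KChIPs. Of these 6 of 7 genes were tested, 4 above 0 and 2 below. *Kcnip3*, the gene of KChIP3, also known as DREAM or calsenilin, read 0.99, 1.19, 1.09 and 1.24 in βUCP2Tg and 0.57, 0.66, 0.79 and 0.89 in WT. All βUCP2Tg values were above all WT values. The difference was 0.40 (SE 0.10, 1.32-fold, limma adjusted p = 0.0917), and it kept its direction with each array left out, between 0.35 and 0.45. The second tested *Kcnip3* probe differed by -0.05, and the mean of the probes by 0.17 (limma adjusted p = 0.478), so that the difference rests on 1 probe. The other KChIP genes, *Kcnip1*, *Kcnip2* and *Kcnip4*, differed by 0.05, 0.26 and -0.16 with overlapping groups.

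Among the inward rectifiers outside KATP, *Kcnj5* encodes GIRK4, a pore subunit that G proteins open after inhibitory receptors are bound. It read -2.85, -2.96, -3.45 and -3.26 in βUCP2Tg and -6.46, -8.07, -5.39 and -5.26 in WT. Every βUCP2Tg array lay above every WT array. Its only probe was well above background on all 4 βUCP2Tg arrays but on 2 of 4 WT arrays, so that the βUCP2Tg arrays alone met the limit of 4 arrays and the size of the difference is poorly fixed. The fitted difference was 3.17 (SE 0.57, limma adjusted p = 0.0570).

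The WT values of *Kcnj5* had an SD of 1.30 against 0.27 in βUCP2Tg. With normexp background correction, which raises dim values, the difference was 0.64 with a limma adjusted p of 0.0259, and with an intensity trend in limma it was 3.17 with an adjusted p of 0.0382. *Kcnj5* was not tested in the run limited to probes measured on every array. In the alternative runs that tested it the direction was the same, with limma adjusted p from 0.0259 to 0.198. The probe passed the filter through the βUCP2Tg arrays, the group in which it read higher. The shared direction and these p-values therefore add no support for a difference in *Kcnj5*.

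*Kcnj4*, the gene of the strong rectifier Kir2.3, read -1.21, -1.73, -1.72 and -1.44 in βUCP2Tg and -1.93, -2.99, -2.48 and -2.29 in WT. The groups did not overlap, with a difference of 0.90 (SE 0.23, 1.86-fold, limma adjusted p = 0.0895). *Kcnj6*, which encodes GIRK2 and is the GIRK gene best known in islets, read -4.84, -4.99, -4.33 and -3.99 in βUCP2Tg and -4.59, -3.87, -3.80 and -4.13 in WT. It overlapped, with a difference of -0.44 (SE 0.26, limma adjusted p = 0.322), opposite in sign to *Kcnj5*. The *Kcnj6* difference ran from -0.62 without βUCP2Tg sample 4 to -0.29 without βUCP2Tg sample 2, and was -0.26 with normexp background correction. Of the 9 inward rectifier genes tested out of 13, 3 were above 0 and 6 below, and the median log2 fold change was -0.28.

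The other GIRK genes gave little signal. *Kcnj9* was well above background on no array and *Kcnj3* on 2 of 8 arrays, so neither was tested. *Kcnj2*, the gene of Kir2.1, differed by -0.41 (limma adjusted p = 0.210) while its relative *Kcnj4* was higher.

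**Figure D2:**
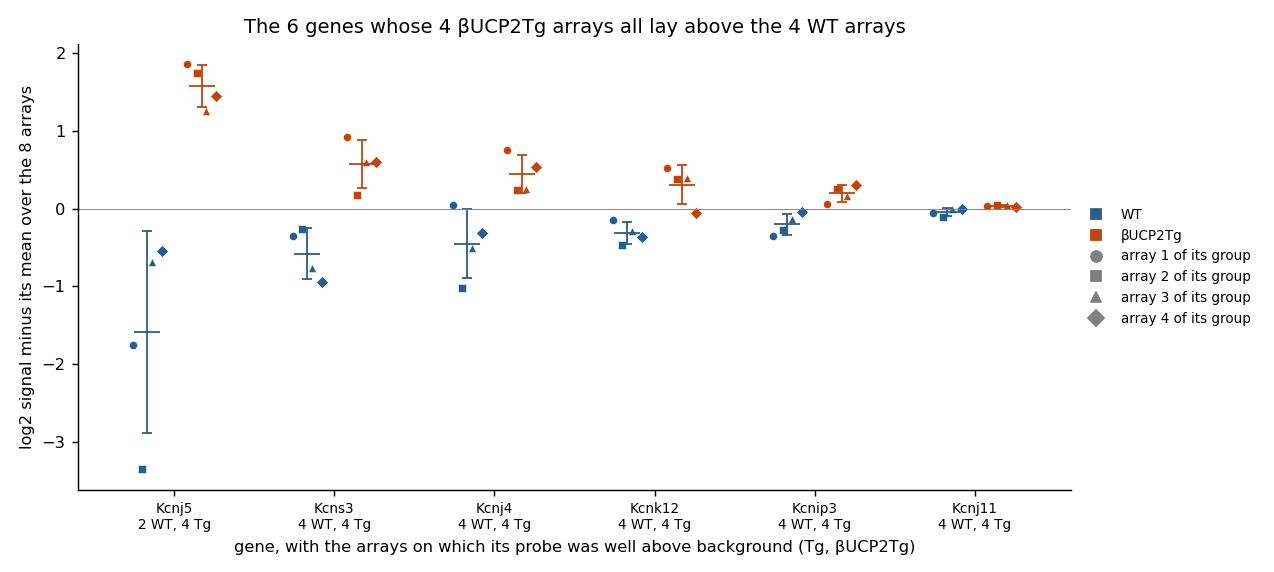
Points are single arrays of the 6 channel genes whose 4 βUCP2Tg values (orange) all lay above the 4 WT values (blue), as log2 signal minus the gene's mean over the 8 arrays (y axis); marks and bars are the mean and SD of 4 arrays, and the line under each name counts the arrays well above background. The WT points of *Kcnj5* were spread most widely, with 2 of 4 of them well above background, and the groups of *Kcnj11* differed by 0.08.

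Silent Kv subunits form no channel alone and change the currents of Kv2 channels when they join them. Of 10 such genes 5 were tested, and they went both ways. *Kcns3*, the gene of Kv9.3, read -2.31, -3.07, -2.63 and -2.63 in βUCP2Tg and -3.59, -3.50, -4.01 and -4.18 in WT. All βUCP2Tg arrays were above all WT arrays. The difference was 1.16 (SE 0.21, 2.23-fold with an interval from 1.61 to 3.09), and its limma adjusted p of 0.0555 was the lowest of the channel genes.

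Whether *Kcns3* was called depended on the setting. Its limma adjusted p was 0.0443 when only probes measured on all 8 arrays were tested, 0.0476 after quantile normalization and 0.0407 with an intensity trend. It was 0.112 with no filter on dim probes and 0.143 with the replicate number as a block. Student's t-test gave an adjusted p of 0.0988. Over all alternatives the limma adjusted p ran from 0.0189 to 0.186. The lowest value came from leaving out both βUCP2Tg sample 4 and WT sample 1, which was chosen after seeing the data. Its difference stayed between 1.04 and 1.29 with each array left out, and it was 0.39 with normexp background correction (limma adjusted p = 0.0501). *Kcng2* (Kv6.2) and *Kcng3* (Kv6.3) lay on the other side, at -0.54 and -0.67, both at an unadjusted p under 0.05 with limma adjusted p = 0.159 and 0.0987. For *Kcng3* the 4 βUCP2Tg values ran from -5.61 to -5.14 and the WT values from -5.16 to -4.36, so that the ranges touched at a single WT array.

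K2P channels carry the background potassium current. *Kcnk16* encodes TALK-1, a channel abundant in β-cells. It read 1.33, 1.14, 1.08 and 1.01 in βUCP2Tg and 1.07, 0.57, 0.60 and 1.05 in WT, a difference of 0.32 (SE 0.15, limma adjusted p = 0.227). The groups overlapped because WT arrays 1 and 4 lay as high as the lower βUCP2Tg arrays. The second *Kcnk16* probe differed by 0.50 (SE 0.11, limma adjusted p = 0.0823) with no overlap.

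*Kcnk3*, the gene of the acid-sensitive TASK-1, read -1.36, -1.15, -1.06 and -0.99 in βUCP2Tg and -1.76, -1.13, -0.89 and -1.05 in WT. It differed by 0.07 (SE 0.19, limma adjusted p = 0.856), and the sign turned to -0.12 without WT sample 1. *Kcnk12*, the gene of THIK-2, read 0.01, -0.13, -0.11 and -0.57 in βUCP2Tg and -0.65, -0.98, -0.79 and -0.88 in WT. Its groups did not overlap, with a difference of 0.62 (SE 0.14, 1.54-fold, limma adjusted p = 0.0823).

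Of 14 K2P genes 10 were tested, 6 above 0 and 4 below, and 3 were higher at an unadjusted p under 0.05. Besides *Kcnk12* these were *Kcnk5* (TASK-2) at 0.59 and *Kcnk4* (TRAAK, a mechanosensitive channel) at 0.21, with limma adjusted p = 0.120 and 0.197. *Kcnk5* read -2.73, -2.99, -3.01 and -3.55 in βUCP2Tg and -3.81, -3.89, -3.43 and -3.50 in WT. Here βUCP2Tg array 4 alone lay among the WT values. Without that array the difference was 0.75 with a limma adjusted p of 0.0429, and the share of all genes called rose from 0.482% to 3.52%. That array was the one of its group nearest to WT for 52% of all genes, so that this p adds no support for *Kcnk5*.

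KCNQ pore subunits and KCNE auxiliary subunits assemble with each other and with other Kv channels. *Kcnq1*, *Kcnq5*, *Kcne1*, *Kcne3* and *Kcne4* all had differences below 0 on the probe chosen for each gene, except that *Kcne1* turned above 0 without βUCP2Tg sample 3 or WT sample 2. *Kcnq1*, the gene of Kv7.1, read -1.62, -2.24, -1.81 and -2.21 in βUCP2Tg and -1.16, -1.63, -1.45 and -1.71 in WT. The groups overlapped at 1 βUCP2Tg array, and the difference was -0.48 (SE 0.18, limma adjusted p = 0.153). The 3 tested *Kcnq1* probes disagreed in sign, from -0.48 to 0.16, and their mean gave -0.24 (limma adjusted p = 0.380).

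*Kcnq5* differed by -0.24 with overlapping groups, and *Kcnq3* was well above background on no array. Among the KCNE genes, *Kcne3* read -0.52, -0.16, -0.36 and 0.83 in βUCP2Tg and 0.09, 1.05, 1.14 and 1.29 in WT. *Kcne4* read -5.54, -5.80, -6.27 and -3.93 in βUCP2Tg and -5.08, -3.36, -3.00 and -3.42 in WT. In both genes βUCP2Tg array 4 stood above its group and WT array 1 below its group, which made the groups overlap.

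The fitted difference was -0.95 for *Kcne3* (SE 0.35, limma adjusted p = 0.153). The *Kcne4* probe was well above background on 2 of 4 βUCP2Tg arrays and on all WT arrays. The WT arrays alone met the limit of 4 arrays, so that the size of its difference is poorly fixed. It was -1.67 as fitted (SE 0.59, limma adjusted p = 0.140). With normexp background correction, under which 2.58% of all genes were called, *Kcne4* differed by -0.67 with a limma adjusted p of 0.0452. *Kcne1*, the partner of Kv7.1 in the heart, differed by -0.10 (limma adjusted p = 0.834).

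Calcium-activated channels open when calcium enters during spikes. *Kcnma1*, the gene of the BK pore, read 2.41, 2.36, 2.55 and 2.43 in βUCP2Tg and 2.61, 2.61, 2.53 and 2.65 in WT. The groups met at WT array 3 and βUCP2Tg array 3, with a difference of -0.16 (SE 0.08, limma adjusted p = 0.260). Its 6 probes disagreed in sign, from -0.23 to 0.34, and their mean gave 0.0040.

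*Kcnn4*, which encodes the intermediate-conductance channel SK4, read -1.47, -1.79, -1.60 and -2.70 in βUCP2Tg and -2.18, -2.50, -2.35 and -2.67 in WT. Of the βUCP2Tg arrays 3 lay above every WT array and array 4 below every one of them, so that the difference was 0.54 (SE 0.26, limma adjusted p = 0.237). For *Kcnn4* it was 0.33 with normexp background correction and 0.81 without βUCP2Tg sample 4, the array that lay toward WT. *Kcnn1*, the gene of the small-conductance channel SK1, read -1.08, -1.24, -1.12 and -1.98 in βUCP2Tg and -1.40, -2.59, -2.65 and -2.87 in WT. It differed by 1.02 (SE 0.34, 2.03-fold, limma adjusted p = 0.128), with overlap made by βUCP2Tg array 4 and WT array 1.

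The remaining SK genes, *Kcnn2* and *Kcnn3*, differed by 0.52 and 0.01. The other tested *Kcnn2* probe gave -0.54, so that the direction of this gene depends on the probe. Of the BK beta subunits, which tune the calcium sensitivity and inactivation of the BK pore, *Kcnmb2* differed by 0.46 and *Kcnmb4* by -0.32, both at an unadjusted p under 0.05 with limma adjusted p = 0.125 and 0.140. All 3 *Kcnmb2* probes were above 0, from 0.46 to 0.67, and 1 of them had groups without overlap.

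In the EAG, ERG and ELK group, 7 of 8 genes were tested and 6 lay above 0, with a median log2 fold change of 0.24. The count was 5 of 7 with normexp background correction and 5 of 7, with a median of 0.10, without WT sample 3. Without βUCP2Tg sample 1 it was 4 of 6, with a median of 0.15. Among the genes above 0, *Kcnh4*, *Kcnh6* and *Kcnh8* each also had a tested probe below 0 (-0.05, -0.25 and -0.0012). Over all genes tested, 54.0% lay above 0. *Kcnh2*, the gene of ERG1, a channel that limits β-cell firing, read 0.64, 0.50, 0.42 and -0.08 in βUCP2Tg and 0.48, -0.43, -0.63 and -0.20 in WT. WT array 1 lay among the βUCP2Tg values. The difference was 0.57 (SE 0.26, limma adjusted p = 0.211), and the second probe gave 0.76 (SE 0.18, limma adjusted p = 0.0866) with no overlap. *Kcnh3*, of the ELK branch, differed by 0.67 (limma adjusted p = 0.114). *Kcnh1*, the gene of EAG1, was the only one below 0 on the probe chosen for each gene, at -0.38 (limma adjusted p = 0.214).

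**Figure D3:**
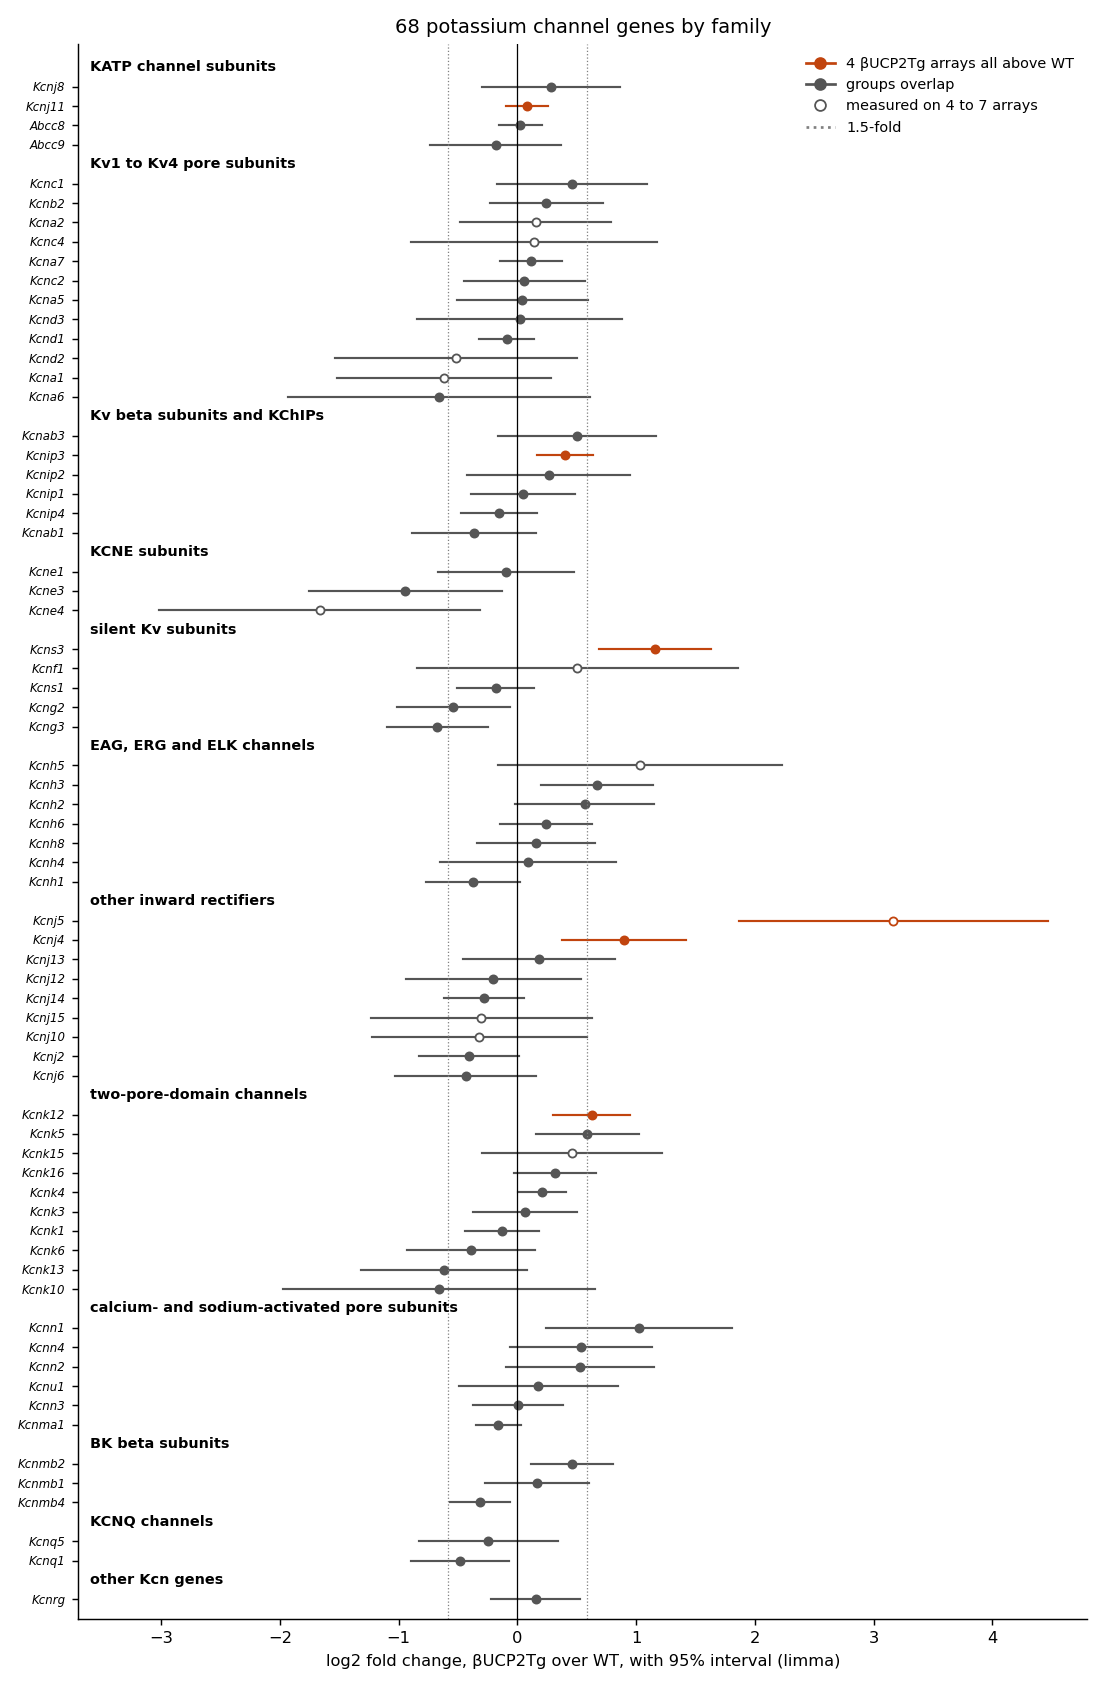
Each point is the log2 fold change of one of 68 channel genes in βUCP2Tg over WT (x axis) with its 95% interval from limma, grouped by family; dotted lines mark 1.5-fold, orange marks genes whose groups did not overlap, and open points were well above background on 4 to 7 arrays. *Kcnq1*, *Kcnq5* and the 3 tested KCNE genes lay below 0, though *Kcne1* turned without βUCP2Tg sample 3 or WT sample 2, and 6 of 7 EAG, ERG and ELK genes lay above it (5 of 7 with normexp background correction or without WT sample 3, and 4 of 6 without βUCP2Tg sample 1).

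The 24 genes that were not tested are channels with little or no signal in these islets. On no array were 20 genes well above background, among them *Kcna3* and *Kcna10*, the pore genes *Kcnj1*, *Kcnj9* and *Kcnj16*, the K2P genes *Kcnk7*, *Kcnk9* and *Kcnk18*, and the silent Kv genes *Kcng1*, *Kcng4*, *Kcns2*, *Kcnv1* and *Kcnv2*. *Kcna4* and *Kcnk2* were above background on 1 array, *Kcnj3* on 2 and *Kcnt1* on 3. For none of these genes was a difference detectable on these arrays.

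More than 1 tested probe was available for 26 of the 72 genes, and in 16 of these all probes had the same sign. Agreement was close for *Kcnj11* (0.08 and 0.06). Opposite signs were found, among others, for *Kcnn2* (-0.54 and 0.52), *Kcnh6* (-0.25 to 0.57), *Kcnq1* (-0.48 to 0.16), *Kcnip3* (-0.05 and 0.40), *Kcnd1* (-0.10 to 0.17) and *Kcnma1* (-0.23 to 0.34). The 3 probes of *Kcnn1* ran from 0.16 to 1.18 and the 2 of *Kcnc2* from 0.06 to 0.60, with the same sign. Over the 109 channel probes tested, 0 were called, against 0.206% of all probes higher and 0.204% lower.

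Other genes of potassium handling were described from lists taken as a whole, by counts at an unadjusted p under 0.05, since limma called 0 genes in each. Of the proteins outside Kcn that attach to potassium channels, 7 of 10 were tested and 1 was lower, *Cntnap2* at -0.39. Of HCN, NALCN, TRIC and lysosomal cation channel genes, 11 of 12 were tested, 2 higher and 3 lower. *Tmem175*, a lysosomal potassium channel gene, was highest among them at 0.63. Of the subunits of the sodium-potassium pump, which restores the potassium gradient, 11 of 13 were tested and 1 was lower, *Fxyd5* at -0.32. Of the potassium chloride cotransporters, 5 of 6 were tested and 1 was higher, *Slc12a7* at 0.51. Over all genes the share at this limit was 12.9% higher and 11.6% lower.

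Of 17 hypoxia response genes tested, 13 were lower in βUCP2Tg at an unadjusted p under 0.05 with 0 called by limma, and their mean level ran from 1.43 to 2.81 on the βUCP2Tg arrays, highest on array 4, and from 2.30 to 3.27 on the WT arrays, lowest on array 1. βUCP2Tg array 4 lay above WT array 1 here too, in the same arrangement as for *Kcne3* and *Kcne4*. Both arrays were the ones of their group nearest to the other genotype for 36.1% of the channel genes and 32.6% of all genes tested. The arrangement is therefore not particular to these genes. All 13 acinar markers tested were below 0, with 0 at an unadjusted p under 0.05, and their mean ran from -0.91 to 3.29 in βUCP2Tg and from -0.39 to 3.94 in WT. The acinar mean was high on βUCP2Tg array 4 and low on WT array 4, and overlapped widely.

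The 10 macrophage and leukocyte markers had mean levels of 0.33 to 0.70 in βUCP2Tg and 0.71 to 1.10 in WT, with 1 gene called lower, *Cd14* at -2.10 (limma adjusted p = 0.0480). At an unadjusted p under 0.05 there were 1 higher and 3 lower, and 3 of the 10 lay above 0. *C1qa*, a complement gene of macrophages, was higher by 0.66 without overlap (limma adjusted p = 0.0823). Markers of non-β islet cells lay at 4.18 to 4.28 in βUCP2Tg and 3.83 to 4.17 in WT, with 3 of 10 higher at an unadjusted p under 0.05. In both lists the group ranges did not overlap. For endothelium 3 of 10 markers were higher and 1 lower at that limit, for duct 2 of 7 higher and 2 lower, and for Schwann cells and neurons 1 of 8 higher and 1 lower. The part of these lists in the potassium channel values was not tested.

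**Figure D4:**
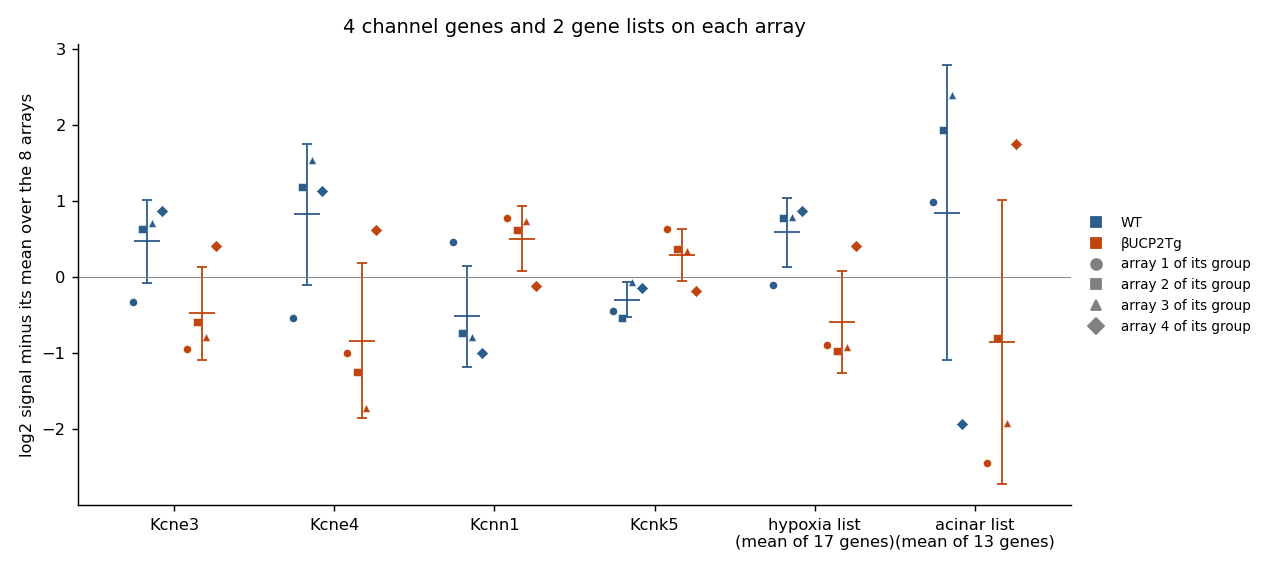
Points are single arrays of *Kcne3*, *Kcne4*, *Kcnn1*, *Kcnk5* and of the mean over the tested genes of the hypoxia and acinar lists, as log2 signal minus the mean over the 8 arrays (y axis), with mean and SD of 4 WT (blue) and 4 βUCP2Tg (orange) arrays. For *Kcne3*, *Kcne4*, *Kcnn1* and the hypoxia list, array 4 of βUCP2Tg (diamond) and array 1 of WT (circle) lay toward the other genotype.

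How many channel genes were called depended on these arrays. Without βUCP2Tg sample 4, 5 of 72 genes were called, all higher (*Kcnj5*, *Kcnk12*, *Kcnk5*, *Kcnn4* and *Kcns3*), which is 6.94% against 3.52% of all genes (1.38% higher and 2.14% lower). The groups of 18 genes did not overlap, or 25% against 26.7% of all genes. Without WT sample 1, 9 were called higher and 3 lower of 71, which is 16.9% against 11.4% (6.89% higher and 4.55% lower), with *Kcne3* and *Kcne4* among the lower ones. The groups of 20 genes did not overlap, or 28.2% against 32.4%. Without both, 12 were called higher and 6 lower of 71, or 25.4% against 15.7% (9.22% higher and 6.46% lower), and the groups of 32 genes did not overlap (45.1% against 46.6% of all genes). Leaving out both arrays was chosen after seeing the data. Each of these arrays was the one of its group nearest to the other genotype for 52% and 49.6% of all genes, so that leaving them out widens differences by construction, and these counts support nothing about the channel genes.

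Leaving out any of the other 6 arrays gave 0 calls among the channel genes. The KATP subunits were not called in any of these fits.

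**Figure D5:**
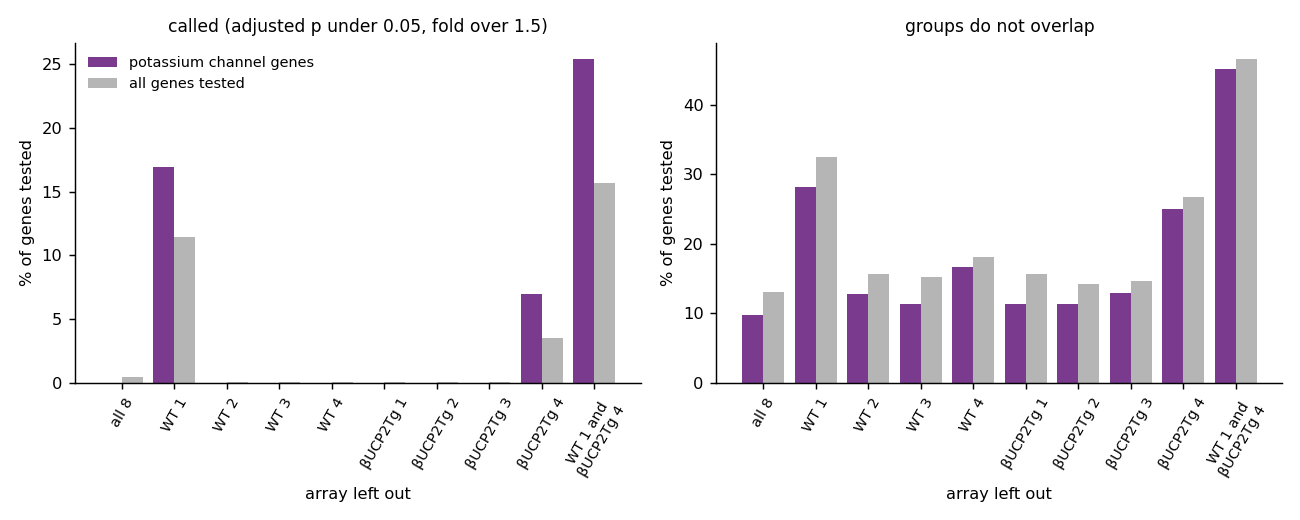
Bars give the share of tested genes (y axis, %) that were called (left) or whose groups did not overlap (right), for the potassium channel genes (purple) and for all genes tested (grey), with all 8 arrays and with the array named on the x axis left out. Calls appeared among the channel genes when WT 1, βUCP2Tg 4 or both were left out, and the share among all genes rose with them.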

How the data were processed

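Islet RNA of 4 βUCP2Tg and 4 WT samples was hybridised to one-colour arrays. The authors deposited, for each array, the intensity of every spot after background subtraction by Agilent Feature Extraction (version 10.7.3.1 per the file headers, 9.1 per the labels), without scaling between arrays. They also deposited GeneSpring values on the log2 scale, set to each array's 75th percentile, used here for gene names, probe choice and as an alternative. The authors' fold changes and p-values there were not used.

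From the intensities, control and outlier spots were left out, log2 was taken, each array's 75th percentile was subtracted and spots of a probe were averaged. An array measured a probe if 50% or more of the kept spots were well above background. R 4.3.3 with limma 3.58.1 compared the groups, and p-values were adjusted by Benjamini-Hochberg over every tested probe. Scripts were tested on simulated data. Figures used matplotlib 3.10.9 under Python 3.11.15. Named genes were the KATP subunits, 9 other channels known from islets, every gene called and up to 10 genes whose groups did not overlap, and other genes were named after their values were seen. The potassium channel genes, the lists and this rule were chosen with earlier results of these data known. The number of arrays limits the precision. The files' build is mm9, and no coordinates are given. The values of some genes are not reported here.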

Additional observations from a re-analysis of the deposited data

How the results depend on the processing

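Of the 72 potassium channel genes tested, 0 were called higher and 0 lower with all 8 arrays. When only probes measured on all 8 arrays were tested, 1 was called higher, as after quantile normalization (*Kcns3* in both, with 0.838% and 0.459% of all genes called). With normexp background correction 1 was called higher and 1 lower (*Kcnj5*, *Kcne4*), against 2.58% of all genes, with 14 genes without overlap against 7 (19.4% of the channel genes and 17.2% of all genes). With an intensity trend in limma 2 were called higher (*Kcnj5*, *Kcns3*), against 1.18% of all genes. With no filter, the percentile over measured probes, the deposited values and Student's t-test after Benjamini-Hochberg adjustment, 0 were called. The same held with the mean of probes, outlier spots kept and no fold limit. With each array left out, 0 to 9 genes were called higher, 0 to 3 lower, and 8 to 20 had no overlap, with 18 without βUCP2Tg sample 4 (25% against 26.7% of all genes), 20 without WT sample 1 (28.2% against 32.4%) and 12 without WT sample 4 (16.7% against 18.1%). Without βUCP2Tg sample 4 and WT sample 1 together, 12 were called higher and 6 lower, and 32 had no overlap (45.1% against 46.6%).

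Signs turned for *Abcc8* (-0.0031 with the mean of probes, -0.0011 without WT sample 4), *Kcnma1* (0.0040 with the mean of probes), *Abcc9* (0.011 without βUCP2Tg sample 2) and *Kcnk3* (-0.12 without WT sample 1, -0.17 without both samples). With each array left out, the difference ran from -0.0011 to 0.046 for *Abcc8*, from -0.41 to 0.011 for *Abcc9* and from -0.12 to 0.17 for *Kcnk3*. The other 13 genes of the naming rule that are reported here kept their direction in each of these settings in which they were tested. Among them *Kcnj5* was not tested when only probes measured on every array were used. The cause was not tested.

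With the replicate number as a block, 0 genes were called and 22 had an unadjusted p under 0.05. The samples numbered 1 deviated together (correlation of 0.49) and the other pairs did not (0.02, -0.02 and -0.24). Whether the numbers pair the samples cannot be settled from these values. Dim probes limit what can be read, since 11 of the 72 genes were measured on 4 to 7 arrays.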
